A study of Mus musculus with 6 samples.

Results

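The miR-17~92 cluster is a group of 6 miRNA hairpins cut from a single primary transcript, Mir17hg. It was followed through 7 of its mature arms, taken by name from a table of 1081 mature miRNA entries: mmu-miR-17-5p, mmu-miR-17-3p, mmu-miR-18a-5p, mmu-miR-19a-3p, mmu-miR-20a-5p, mmu-miR-19b-3p and mmu-miR-92a-3p (the species prefix mmu, for mouse, is mostly left out below). All 7 were in the table, and 6 of them passed a filter on low values. Small RNA had been sequenced from the kidney inner medulla of mice at 1 month of age, 3 labelled control and 3 labelled DicerAQP2Cre+, in which cells that express aquaporin-2 lack Dicer1. Aquaporin-2 lets water through the principal cells of the collecting duct. The labels give no further allele for the controls, and say only that whole inner medulla was used, so cells that do not express aquaporin-2 contribute RNA to every sample.

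miRNAs of this cluster are known from dividing and embryonic cells, where MYC and E2F factors drive their shared transcript, and the cluster is needed for normal growth of the embryonic kidney. Drosha first cuts the primary transcript into hairpins and Dicer then cuts each hairpin into a duplex, from which an Argonaute protein keeps mainly one arm. Bases 2 to 8 of the kept arm, the seed, pair with target messages, so arms with the same seed can share targets. Known targets of the family include the cell cycle inhibitor Cdkn1a and the pro-apoptotic Bim (Bcl2l11).

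The mature sequences, from RefSeq (GRCm38.p6), are shown because the seed divides the members into target groups. They are written 5′ to 3′ with the seed in capitals. All 7 were matched by name. miR-17-5p and miR-20a-5p share the first seed.
miR-17-5p: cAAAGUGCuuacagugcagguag
miR-20a-5p: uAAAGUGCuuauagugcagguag
The seed of miR-18a-5p is a close variant of it.
miR-18a-5p: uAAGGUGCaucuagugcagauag
The miR-19 arms share another seed.
miR-19a-3p: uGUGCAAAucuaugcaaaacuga
miR-19b-3p: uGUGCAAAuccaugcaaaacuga
miR-92a-3p and the opposite arm of the Mir17 hairpin each have a seed that no other member holds.
miR-92a-3p: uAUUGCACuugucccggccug
miR-17-3p: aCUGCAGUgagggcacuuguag
Counted from the 5′ end, miR-20a-5p differs from miR-17-5p by C1U and C12U, and miR-19b-3p differs from miR-19a-3p by U11C alone. The arms are 21 to 23 bases long, so their read counts can be set side by side without a correction for length. Their GC content runs from 34.8% in miR-19a-3p to 57.1% in miR-92a-3p. How well each arm enters a library was not measured, so shares and ratios of arms below are of reads, not of molecules.

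In GENCODE M21 (GRCm38) the 6 hairpins lie on chromosome 14, plus strand, in exon 2 of the 2 exons of Mir17hg, which does not code for protein. In the order Mir17, Mir18, Mir19a, Mir20a, Mir19b-1 and Mir92-1 they span 836 bases, with gaps of 35 to 96 bases between neighbours. The submitters' processing notes name the build mm9, so no coordinates are given here. The first and the last hairpin of the row are printed because the results turn on their arms, which are in capitals.
Mir17: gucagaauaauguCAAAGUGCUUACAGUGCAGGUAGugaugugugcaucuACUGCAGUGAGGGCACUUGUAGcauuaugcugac
Mir92-1: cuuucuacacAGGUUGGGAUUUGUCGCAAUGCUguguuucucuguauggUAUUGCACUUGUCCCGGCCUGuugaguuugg
In Mir17 the capitals are miR-17-5p and miR-17-3p. In Mir92-1 they are miR-92a-1-5p and miR-92a-3p.

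Values are normalized reads: reads per entry divided by the size factor of the library, which sets libraries on a common scale. Libraries held 2934851 to 7614853 reads, with the fewest in DicerAQP2Cre+ replicate 2. Over all 461 entries that were tested, limma on log2(value + 1) called 8.46% after Benjamini-Hochberg adjustment (threshold 0.05), namely 23 lower (4.99%) and 16 higher (3.47%). With libraries set to equal totals the split was 48 lower and 14 higher, and without control replicate 2 or without control replicate 3 limma called 0 entries (83 and 92 at an unadjusted p under 0.05). Among markers of the cells in the tissue, 5 of 5 epithelial miR-200 arms fell, with a summed level of 16704 to 17708 normalized reads for controls against 7133 to 10776 for DicerAQP2Cre+ samples. Of 5 stromal entries 2 rose, miR-145a-5p and miR-214-3p. The sum of all 5 went from between 23291 and 24539 to between 27621 and 39941. Most of it was miR-143-3p, which did not pass (mean 19328 in controls and 24153 in DicerAQP2Cre+ samples, limma adjusted p = 0.315). No entry passed among 2 endothelial, 4 leukocyte or 2 erythroid entries tested (limma; at an unadjusted p under 0.05, 0, 1 and 0). Summed levels overlapped between genotypes for each of these 3 lists. The leukocyte arm miR-142a-3p had at most 1 read in any library, while miR-150-5p made up most of that list. The leukocyte entry with an unadjusted p under 0.05 was miR-155-5p, which was lower (log2 fold change -1.47, limma adjusted p = 0.0512). The other 3 leukocyte entries tested had a log2 fold change above 0. The part of cell composition in the results below was not tested, and in whole tissue fewer cells of a type and less miRNA per cell cannot be told apart.

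No member of the cluster passed the threshold between genotypes, although all 6 that were tested had lower means in DicerAQP2Cre+ samples. miR-92a-3p, which far exceeded the others, was 1.53-fold lower and miR-17-5p 1.70-fold lower, and these 2 had an unadjusted p under 0.05 in limma. Called entries were 0 of 6 in limma, edgeR and DESeq2, against 8.46%, 9.11% and 12.4% of all tested entries. At an unadjusted p under 0.05 the number was 2 in limma, 1 in edgeR and 2 in DESeq2, where all tested entries gave 28%, 27.3% and 26.7%. The median log2 fold change was -0.65 over the 6 and -0.01 over all 461 tested entries, of which 50.5% had a value below 0. Values of the genotypes did not overlap, with DicerAQP2Cre+ lower, for 3 of the 6 (miR-17-5p, miR-18a-5p and miR-92a-3p), as for 18% of all tested entries. All 6 come from the same 6 libraries and mostly from the same transcript, so they are not independent of each other.

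**Figure D1:**
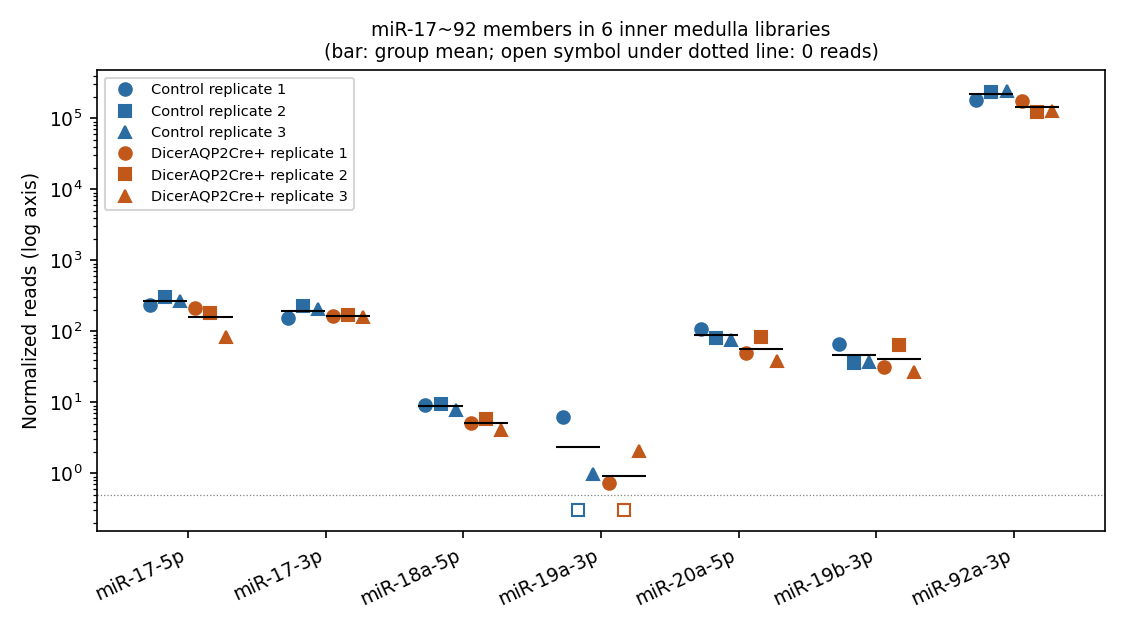
Normalized reads (log axis) of the 7 members in each of the 6 libraries, with a bar at each group mean; an open symbol under the dotted line is a library with 0 reads. miR-92a-3p lies between 122107 and 240578 in all libraries, while the other members stay at or below 303.

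Most reads of the cluster were of miR-92a-3p, an arm of the last hairpin that a hairpin on the X chromosome also encodes. mmu-miR-92a-3p had 179172, 234304 and 240578 normalized reads in control replicates 1 to 3, and 175550, 122107 and 128727 in DicerAQP2Cre+ replicates 1 to 3. The 3 controls were higher, but control replicate 1 and DicerAQP2Cre+ replicate 1 lay close together. The mean went from 218018 ± 33787 to 142128 ± 29133 (SD, n = 3), with a log2 fold change of -0.62 ± 0.21 (SE; 95% interval -1.08 to -0.16; limma adjusted p = 0.0918). This miRNA is well known from endothelial cells, where it restrains vessel growth.

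The call on miR-92a-3p depended on the scaling and on 1 library. With libraries set to equal totals its log2 fold change was -0.84 and it passed (limma adjusted p = 0.0388), as did 13.4% of all tested entries. That scaling moved the median of all entries by -0.20, and relative to the median miR-92a-3p stood at -0.63 under equal totals and -0.61 under the deposited size factors. Without DicerAQP2Cre+ replicate 1 it also passed, at -0.79 (limma adjusted p = 0.0479), as did 8.97% of the entries tested there. Over all alternatives the adjusted p ran from 0.0388 to 0.280. As a share of all reads, miR-92a-3p held 4.43 ± 0.869% in controls and 2.48 ± 0.549% in DicerAQP2Cre+ samples (SD, n = 3). This share was 1.78-fold lower, against 1.53-fold for normalized reads. A share, like equal totals, also moves with the abundant entries. Among these, miR-181a-5p went from a mean of 2383544 normalized reads in controls to 3609529 in DicerAQP2Cre+ samples (limma adjusted p = 0.0641). Its part in the lower share was not tested. miR-92a-3p ranked 5th by mean level among the 1081 entries.

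Summed over the 7 members, the cluster came to 218627 ± 33813 normalized reads for controls against 142556 ± 29155 for DicerAQP2Cre+ samples (SD, n = 3). miR-92a-3p alone made up 99.7 ± 0.0373% of that sum in controls and 99.7 ± 0.0911% in DicerAQP2Cre+ samples, so the total follows it. The other 6 members together had 576, 657 and 593 normalized reads in the controls and 465, 504 and 315 in the DicerAQP2Cre+ libraries. These sums did not overlap, and they came to 609 ± 42.7 and 428 ± 99.7. The lack of overlap rested on miR-17-5p, since the sums of the rest overlapped between genotypes. Taken singly, miR-17-3p, miR-19a-3p, miR-20a-5p and miR-19b-3p overlapped as well.

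Of the pair with the AAAGUGC seed, miR-17-5p was the more abundant. mmu-miR-17-5p had 235, 303 and 269 normalized reads in the controls and 214, 178 and 83.8 in DicerAQP2Cre+ replicates 1 to 3. The groups did not overlap, though DicerAQP2Cre+ replicate 1 lay just under the lowest control and replicate 3 far under it. The log2 fold change was -0.86 ± 0.34 (SE; 95% interval -1.60 to -0.11; limma adjusted p = 0.133). Without DicerAQP2Cre+ replicate 3 it was -0.45 (adjusted p = 0.152), and over all alternatives the adjusted p stayed between 0.0609 and 0.339.

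mmu-miR-20a-5p had 108, 81.0 and 74.5 normalized reads in the controls and 49.6, 84.3 and 37.8 in the DicerAQP2Cre+ libraries. Here replicate 2 of the DicerAQP2Cre+ group, the shallowest library, reached into the control range. The log2 fold change was -0.67 ± 0.33 (SE; 95% interval -1.40 to 0.06; limma adjusted p = 0.216). It was -0.42 without DicerAQP2Cre+ replicate 3, the lowest library for this arm, and -0.98 without DicerAQP2Cre+ replicate 2; neither passed.

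miR-18a-5p was scarce. The normalized reads of mmu-miR-18a-5p were 9.23, 9.43 and 7.74 in the controls and 5.18, 5.88 and 4.09 in the DicerAQP2Cre+ libraries. The groups did not overlap, but these values stand for 12, 12 and 8 reads against 7, 3 and 4 reads. The log2 fold change of -0.70 ± 0.42 (SE; 95% interval -1.64 to 0.23) had a limma adjusted p of 0.306. With a pseudocount of 5 it was -0.46 and did not pass either.

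The miR-19 arms were low as well. mmu-miR-19b-3p had 65.4, 35.4 and 36.8 normalized reads in the controls and 31.1, 64.7 and 26.6 in the DicerAQP2Cre+ libraries. A single library stood high in each group, control replicate 1 and DicerAQP2Cre+ replicate 2, and the groups overlapped. Its log2 fold change was -0.22 ± 0.39 (SE; 95% interval -1.09 to 0.66; limma adjusted p = 0.765). The sign turned without control replicate 1 (0.063) and without DicerAQP2Cre+ replicate 3 (0.028), so no direction is given for this arm.

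miR-19a-3p fell below the filter of a mean of 5 and was not tested. It had 8, 0 and 1 reads in the controls and 1, 0 and 2 reads in the DicerAQP2Cre+ libraries, that is, 12 reads in all. In the libraries without a read, a count of 0 allows up to 3 reads, or 2.36 normalized reads in control replicate 2 and 5.88 in DicerAQP2Cre+ replicate 2. A difference between genotypes was not detectable at this depth.

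Both arms of the Mir17 hairpin were present at similar levels. mmu-miR-17-3p had 153, 228 and 204 normalized reads in the controls and 164, 170 and 160 in the DicerAQP2Cre+ libraries. The lowest of the 6 was control replicate 1, and the DicerAQP2Cre+ libraries lay close to each other, inside the control range. Its log2 fold change was -0.22 ± 0.24 (SE; 95% interval -0.75 to 0.31; limma adjusted p = 0.600). It was -0.39 without control replicate 1, -0.099 without control replicate 2 and -0.43 with libraries set to equal totals, and it passed in none of these 3 settings.

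The ratio of miR-17-5p to miR-17-3p, which the scaling of the libraries cannot move apart from the pseudocount, was 1.53, 1.33 and 1.32 in the controls and 1.30, 1.05 and 0.522 in the DicerAQP2Cre+ libraries. The 5p arm thus led in 5 of 6 libraries and the 3p arm in DicerAQP2Cre+ replicate 3. On the log2 scale the ratio was 0.47 ± 0.12 in controls and -0.16 ± 0.68 in DicerAQP2Cre+ samples (SD, n = 3). By an exact permutation test over the libraries (two-sided), the difference of -0.64 reached p = 0.1, which 3 against 3 cannot go below. Without DicerAQP2Cre+ replicate 3 the difference was -0.25, with p = 0.2 in the exact permutation test, the least that 3 against 2 libraries can give.

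Of the remaining arms of the same transcript, the 2 that were tested did not have lower means. Of 5 listed, miR-19a-5p had no entry under that name, and miR-20a-3p and miR-19b-1-5p had 1 read each over all libraries. miR-18a-3p had 87.7, 55.0 and 68.7 normalized reads in the controls and 97.6, 74.5 and 51.1 in the DicerAQP2Cre+ libraries, which overlapped. Its log2 fold change was 0.05 ± 0.31 (SE; limma adjusted p = 0.928). miR-92a-1-5p had 97.7, 131 and 232 in the controls and 194, 90.1 and 346 in the DicerAQP2Cre+ libraries. The highest value was that of DicerAQP2Cre+ replicate 3, the library with the least miR-17-5p. The log2 fold change of 0.34 ± 0.47 (SE) had a limma adjusted p of 0.695.

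**Figure D2:**
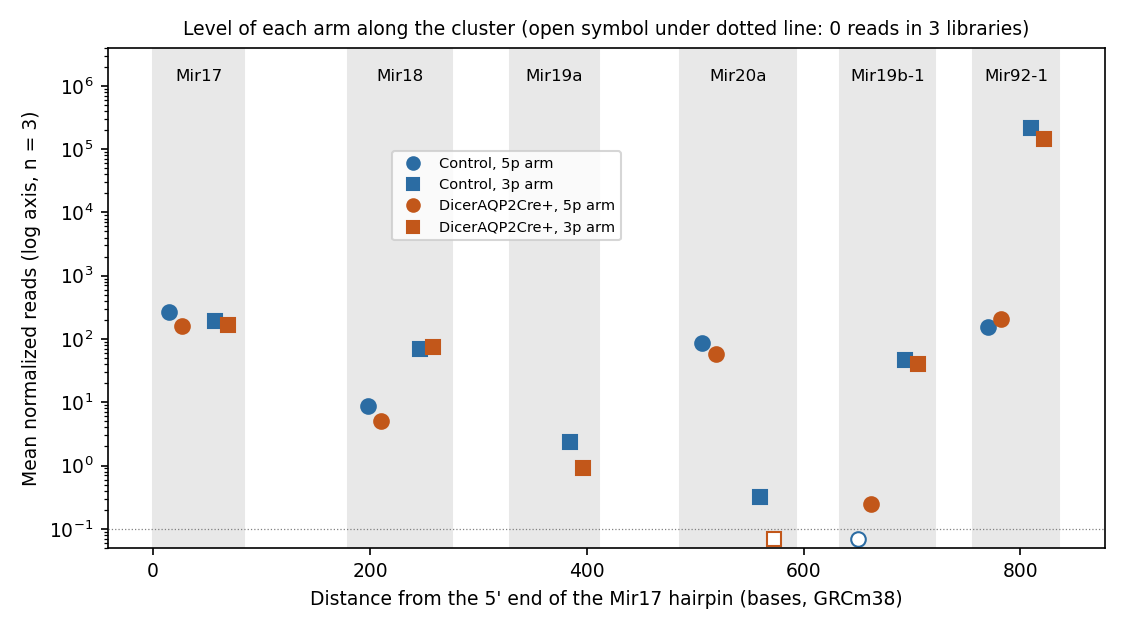
Mean normalized reads (log axis, n = 3 libraries per genotype) of each arm against the distance of its hairpin from the 5′ end of the Mir17 hairpin in bases; circles are 5p arms, squares 3p arms, and grey bands the hairpins. The 3p arm of Mir92-1 stands at 218018 in controls and its 5p arm at 154, while the arms of Mir17 stand at 269 and 195; reads of miR-19b-3p and miR-92a-3p are drawn at this locus although a second locus encodes the same arms.

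Arms of other hairpins were compared in the same way, as values without a test. The ratio of miR-18a-3p to miR-18a-5p was 9.50, 5.83 and 8.88 in the controls and 18.9, 12.7 and 12.5 in the DicerAQP2Cre+ libraries. In this hairpin the 3p arm had more reads in every library, and the groups did not overlap, but the denominator rests on 3 to 12 reads. The ratio of miR-92a-3p to miR-92a-1-5p was 1834, 1785 and 1036 in the controls and 906, 1355 and 372 in the DicerAQP2Cre+ libraries. It was again lowest in DicerAQP2Cre+ replicate 3, and the groups overlapped.

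**Figure D3:**
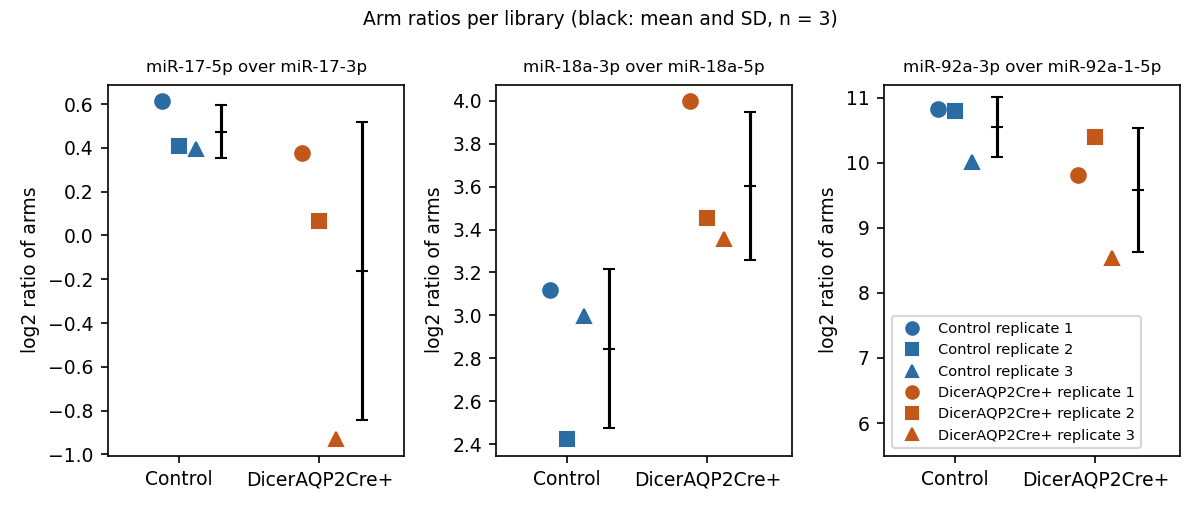
Log2 ratio of the arms of 3 hairpins in each library (log2(value + 1) scale, black marks for mean and SD, n = 3), for Mir17, Mir18 and Mir92-1. DicerAQP2Cre+ replicate 3 has the lowest ratio in the Mir17 panel (-0.93) and in the Mir92-1 panel (8.53).

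miR-19b-3p and miR-92a-3p are also encoded by hairpins of a paralogous cluster on the X chromosome, which holds miR-106a, miR-18b, miR-20b and miR-363, so reads of these 2 arms cannot be assigned to one locus. Arms that only the X cluster makes had few reads. The 8 of its listed arms in the table summed to 7.07 to 10.8 normalized reads for controls against 7.40 to 15.7 for DicerAQP2Cre+ samples, and 0 of them passed the filter. miR-92a-2-5p, the opposite arm of the X copy of miR-92a, had 1 read over all libraries. miR-92a-1-5p, made only by the Mir92-1 hairpin, had 1181. miR-363-3p, the most abundant arm of that cluster, had 20 reads over the controls and 6 over the DicerAQP2Cre+ libraries. miR-106a-5p differs from miR-17-5p by U10A alone and had 4 reads over all libraries.

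The seeds of the cluster are also carried by miRNAs from elsewhere, and the cluster's weight differed by seed. Sequences were matched by name for 919 of the 1081 entries. The AAAGUGC seed occurred in 6 entries, which summed to 5424 ± 430 normalized reads for controls against 5001 ± 698 for DicerAQP2Cre+ samples (SD, n = 3). miR-17-5p and miR-20a-5p supplied 6.58 ± 0.147% of them in controls and 4.23 ± 1.24% in DicerAQP2Cre+ samples. Their share was 6.49%, 6.51% and 6.75% in the controls and 4.63%, 5.22% and 2.83% in the DicerAQP2Cre+ libraries, without overlap.

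Most reads with that seed came from miR-93-5p, printed here with its seed in capitals because it outweighs the members that share it.
miR-93-5p: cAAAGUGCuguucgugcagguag
miR-93-5p belongs to the miR-106b~25 cluster in the replication gene Mcm7. It had 4820, 5425 and 4662 normalized reads in the controls and 5276, 4642 and 4093 in the DicerAQP2Cre+ libraries, which overlapped. Its log2 fold change was -0.09 ± 0.19 (SE; 95% interval -0.52 to 0.33; limma adjusted p = 0.782).

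The AUUGCAC seed was the reverse case. Its 5 entries summed to 235381 ± 34130 normalized reads for controls against 156685 ± 31689 for DicerAQP2Cre+ samples, and miR-92a-3p supplied 92.5 ± 1.26% and 90.7 ± 0.332% of them (SD, n = 3). The next most abundant was miR-92b-3p, shown because it differs from miR-92a-3p by U10C and G21C over their shared 21 bases.
miR-92b-3p: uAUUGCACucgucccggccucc
It had 14253, 12178 and 15315 normalized reads in the controls and 14154, 9606 and 10284 in the DicerAQP2Cre+ libraries, with a log2 fold change of -0.31 ± 0.21 (SE; limma adjusted p = 0.357). Its order over the DicerAQP2Cre+ libraries was that of miR-92a-3p, with replicate 1 highest and replicate 2 lowest, and its groups overlapped. The GUGCAAA seed occurred only in the miR-19 arms of the table, and the AAGGUGC seed only in miR-18a-5p and miR-18b-5p, the latter with 4 reads over all libraries.

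In the miR-106b~25 cluster as a whole, 6 of 6 arms were tested and 0 passed in limma (0 at an unadjusted p under 0.05), with log2 fold changes from -0.27 to 0.41 and a median of 0.03. edgeR and DESeq2 also called 0 of its arms. miR-106b-3p was the arm whose groups did not overlap, at 478, 553 and 563 normalized reads in the controls and 769, 784 and 576 in the DicerAQP2Cre+ libraries. DicerAQP2Cre+ libraries were higher there (log2 fold change 0.41 ± 0.22, SE; limma adjusted p = 0.251), as in 15.6% of all tested entries. miR-25-3p, which carries the miR-92a seed, had 3441 ± 486 normalized reads for controls against 3206 ± 354 for DicerAQP2Cre+ samples (SD, n = 3; limma adjusted p = 0.782). The difference between this cluster and miR-17~92 was not tested.

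**Figure D4:**
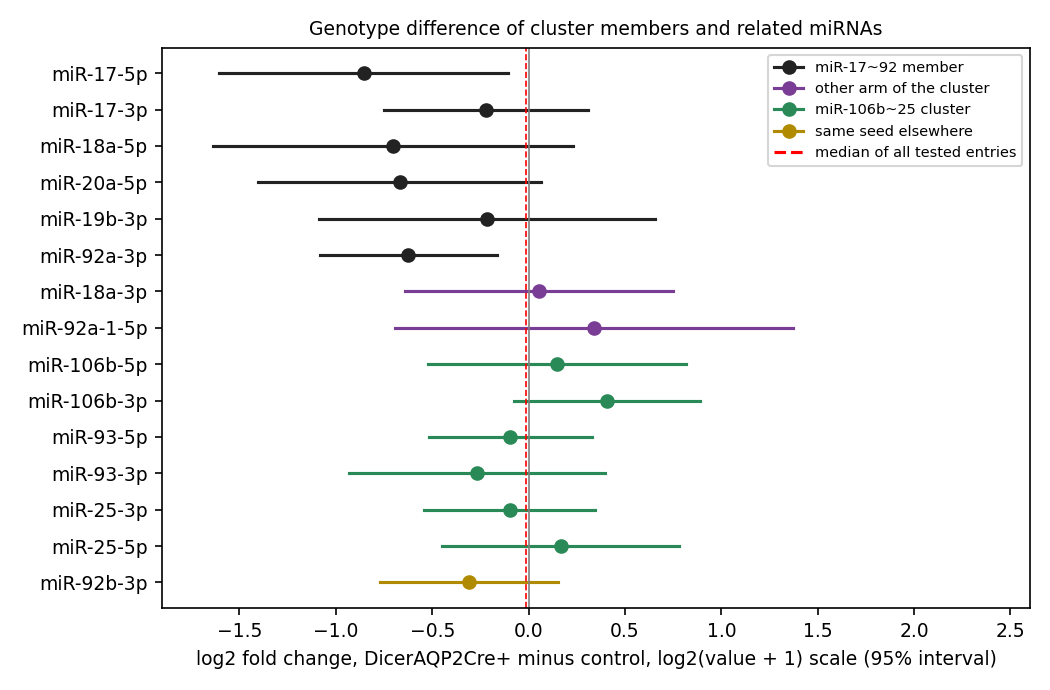
Log2 fold changes, DicerAQP2Cre+ minus control on the log2(value + 1) scale, with 95% intervals from limma, for the 6 tested members, the other arms of the cluster, the miR-106b~25 cluster and miR-92b-3p; the dashed line is the median of all tested entries. The intervals of miR-17-5p (-1.60 to -0.11) and miR-92a-3p (-1.08 to -0.16) lie below 0 before adjustment, and all others hold 0.

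Over the 6 libraries the members did not move as a block. As a description of log2 values, miR-17-5p had a Pearson correlation of 0.80 with miR-92a-3p, 0.85 with miR-18a-5p and 0.72 with miR-20a-5p. miR-20a-5p and miR-19b-3p had one of 0.85, while miR-19b-3p had -0.18 with miR-92a-3p. These values share libraries and depth and rest on 6 points each. DicerAQP2Cre+ replicate 3 was the lowest library for miR-17-5p, miR-18a-5p, miR-20a-5p and miR-19b-3p, whereas DicerAQP2Cre+ replicate 2 was the lowest for miR-92a-3p.

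Outside these clusters and seeds, the entries with a mean of at least 50 whose log2 values were most like the standardized mean of the 6 members were miR-872-5p (Pearson correlation 0.94 over 6 libraries), miR-652-3p (0.92) and miR-378a-5p (0.92), of 247 candidates. miR-872-5p had 121, 105 and 127 normalized reads in the controls and 54.7, 50.9 and 30.6 in the DicerAQP2Cre+ libraries, and it fell (log2 fold change -1.39 ± 0.29, SE; limma adjusted p = 0.0162). miR-652-3p (-0.45, adjusted p = 0.155) and miR-378a-5p (-0.58, adjusted p = 0.214) did not pass in limma. The mean of the members was higher in every control than in any DicerAQP2Cre+ library. Choosing entries by likeness to it in the same 6 libraries favours lower DicerAQP2Cre+ values, so their direction is no separate result.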

How the data were processed

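In the deposited matrix, the authors' signal for an entry is its number of reads over the size factor of that library. This was read from the values: 100% were whole multiples of 1 read within 0.01 read, and size factors recomputed by the median of ratios matched. Per the submitters' processing notes, mm9, DESeq2 and FastQC 0.11.3 were used. The aligner and the miRNA release were not given in the sources used here. The TruSeq small-RNA kit was used, per the labels' protocols. Columns CK01 to CK03 were read as DicerAQP2Cre+ replicates 1 to 3, an inference from the names on which every direction rests. The series design describes 3 + 3 mice. Small RNA libraries do not hold the Dicer1 transcript, so the labels were not checked against it.

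limma 3.58.1 (R 4.3.3) was run with a mean-variance trend on log2(value + 1) of 461 entries with a mean of at least 5 over 6 libraries, two-sided, with Benjamini-Hochberg adjustment over all entries tested. This scale understates the change of low entries. edgeR 4.0.16 (quasi-likelihood, TMM) and DESeq2 1.42.0 were run on the recovered reads as alternatives, and all 3 were tested on simulated data. Means are given with SD and fold changes with SE. Floors of 3 reads cover counting error only, since reads copied by PCR are not separate molecules. The members and lists were chosen with earlier results of these data known. All members, the other arms, the paralogous clusters and entries with the same seeds were named by rule. miR-1a-3p, miR-19a-5p, miR-106a-3p and miR-19b-2-5p had no entry under these names and were not analysed here. Marker lists of cortical tubule (1 of 2 tested entries lower), striated muscle (0 of 1) and neural miRNAs (1 of 1 lower) were counted as well. The neural entry tested was miR-9-5p, while miR-124-3p, also on that list, had 1 read over all libraries.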

Additional observations from a re-analysis of the deposited data

How the results depend on the processing

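Each fold change of the 6 tested members was recomputed under up to 16 alternatives (miR-18a-5p and miR-19b-3p fall below the mean filter of 50), 94 values in all, of which 90 kept their sign and their side of the threshold. miR-92a-3p passed with equal totals (-0.84) and without DicerAQP2Cre+ replicate 1 (-0.79), which made 1 member called in each, and ranged from -0.79 to -0.52 with 1 library left out. miR-19b-3p turned to 0.063 without control replicate 1 and 0.028 without DicerAQP2Cre+ replicate 3 (lowest -0.60); the cause was not tested. Counts of all entries called lower (23) and higher (16) were 11 and 7 without a trend, 48 lower with equal totals, 28 higher by DESeq2, and 0 to 62 lower and 0 to 43 higher with 1 library left out: 0 and 0 in limma without control replicate 2 or 3 (83 and 92 entries had an unadjusted p under 0.05; the count tools were run on all 6 libraries only), and 62 and 43 without DicerAQP2Cre+ replicate 3. Fewer libraries also leave fewer degrees of freedom. Same-numbered samples did not deviate together (correlations -0.059, 0.0054 and 0.055), and the main fit did not pair them. With so few libraries per genotype, such correlations cannot exclude a pairing. With the replicate as a block, limma called 18 entries lower and 14 higher, with 0 members. In that fit the limma adjusted p was 0.150 for miR-92a-3p and 0.155 for miR-17-5p. Depth limits miR-18a-5p (46 reads in all) and miR-19a-3p (12).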
